A study of Mus musculus with 9 samples.

Results

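The collagen chain genes were compared in a mouse fibroblast line under 3 conditions: control, 1 h of the agent B/B, and a washout of 6 h that followed it. Members were all genes whose single annotated symbol is Col, a type number, a and a chain number. Each gene was read from its brightest probe set, the one with the highest mean over all arrays. This gave 44 of the 22180 genes measured, of which 11 were fibrillar chains, 8 were basement membrane chains and 25 belonged to other families.

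The cells were hMLKL1-181-2Fv-NIH3T3, a derivative of the NIH3T3 mouse embryonic fibroblast line with an amino-terminal piece of human MLKL joined to Fv domains. MLKL disrupts the plasma membrane in necroptosis, a lytic cell death, and B/B is a dimerizer that brings Fv domains together. Total RNA was hybridised to 9 one-colour arrays, 3 in each of 3 groups, and all 3 groups carry the fusion. The first group was the control. The second received 50 nM B/B for 1 h and was sorted for binding of annexin V, which attaches to phosphatidylserine on the outer face of the membrane. The third had the same B/B treatment and sort and then a washout of 6 h, for which the design gives 3000 nM of an unnamed compound. Sorting and collection time of the control cells are not stated in the labels, so effects of B/B, sorting and time cannot be told apart in a comparison with control. For the washout group the unnamed compound is a further difference from control. In washout against B/B, effects of the washout, the compound and the added 6 h cannot be told apart. The labels also do not say that arrays of a group came from separate cultures, so p-values measure the spread between these samples, which may be technical. Whether the line is 1 clone, and which promoter drives the fusion, is not given in the sources used here.

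Collagens are extracellular proteins whose chains wind into triple helices. Fibrillar collagens, of which types I, III and V are typical products of fibroblasts, assemble into the fibrils that give tissues tensile strength, with type V chains controlling how wide a fibril grows. Type IV collagen forms the sheet-like network of basement membranes, and type VI collagen forms beaded filaments around cells. Chains are hydroxylated and folded in the endoplasmic reticulum, secreted, trimmed by proteases and cross-linked by lysyl oxidases.

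Values are log2 probe set signals, so that a difference of 1 is a doubling, and a gene was called where the limma adjusted p (Benjamini-Hochberg over all 22180 genes) was under 0.05. Array medians lay between 5.14 and 5.24. Correlations were 0.998 to 0.999 within groups and 0.990 to 0.998 between groups. The fibroblast identity was checked on 10 marker genes: vimentin (Vim) read 12.93 in each group mean and fibronectin (Fn1) 11.93 to 12.06, whereas Fap and Lum were dim at 3.02 to 3.32. The mean of the 10 markers was 9.05 to 9.10 in control, 9.14 to 9.15 after B/B and 9.01 to 9.03 after washout. Of the 10, 3 were called higher and 3 lower at washout against control (60% called, against 26.2% of all genes). The share was 48.1% for genes at or above the median gene by mean over all arrays, where all 10 but Fap and Lum lay. Among them, log2 differences were -1.36 for Pdgfrb, -0.44 for Thy1, 0.68 for Pdgfra and 0.56 for Pdpn. At 1 h against control, 1 was higher (Pdpn, 0.36) and 0 lower (10%, against 2.89% of all genes). Markers of other cells were mixed. Ptprc (group means 3.20 to 3.39), Epcam (3.33 to 3.46), Pecam1 (4.85 to 5.03) and Acan (4.13 to 4.38) were dim, whereas Cd68 (7.71 to 8.30), Cd14 (7.83 to 9.30) and the chondrocyte regulator Sox9 (11.55 to 11.65) were not. Endothelial Cdh5 (6.12 to 6.65), epithelial Krt8 (5.88 to 6.02), Cdh1 (5.38 to 5.59) and Krt14 (5.10 to 5.35), and leukocyte Csf1r (5.58 to 5.70) also lay above the median gene by mean over all arrays. The mean of 8 leukocyte markers ran from 4.95 to 4.96 in control, 5.04 to 5.13 after B/B and 5.07 to 5.10 after washout. Of these 8, 3 were called higher and 0 lower at 1 h against control, among them Cd68 (0.51) and Cd14 (0.61), and 1 was higher (Cd14, 1.47) and 2 lower at washout against control. List means over all arrays ran from 4.87 to 4.99 for 6 epithelial markers, 4.63 to 4.83 for 6 endothelial markers and 5.44 to 5.66 for 5 chondrocyte markers. Of these, 1 endothelial gene (Cdh5, 0.28) was called higher and 1 epithelial gene (Cdh1, -0.20) lower at washout against control. The part of these marker shifts in the collagen results was not tested. In bulk RNA, from a culture or from a sorted fraction of it, fewer cells that express a gene and less of its RNA per cell cannot be told apart.

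Few collagen RNAs passed the test after 1 h of B/B, and more did after the washout, when 6 fibrillar chains of types I, III, V and XI and 2 of the type IV chains were lower. At 1 h against control, 1 collagen gene was higher and 1 lower of 44 (4.55%), against 2.89% of all genes (1.01% higher and 1.88% lower). At unadjusted p under 0.05 there were 5 higher and 3 lower (18.2%), against 18.5% of all genes. Higher genes made up 34.9% of all the calls in that comparison, 48.0% after quantile normalization and 46.1% without control replicate 3. At washout against control, 3 were higher and 13 lower (36.4% called), against 26.2% of all genes (14.5% higher and 11.7% lower). At washout against B/B, 2 were higher and 14 lower (36.4%), against 28.6% of all genes (16.6% higher and 12.0% lower). The lower calls were thus 29.5% of the collagen genes against control and 31.8% against B/B. These 3 comparisons share arrays in pairs, so their counts are not independent of each other.

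The F-test over the 3 groups called 17 of the 44 genes, or 38.6%, against 29.5% of all genes. Groups were fully separated, with no overlap of their arrays, for 20.5% of collagen genes in B/B against control (21.3% of all genes), for 40.9% in washout against control (38.0%) and for 52.3% in washout against B/B (39.6%). Bright and dim genes were called at different rates. Of the 26 collagen genes at or above the median mean of all genes, 3 were higher and 12 lower at washout against control, or 57.7% called with 46.2% lower. Among all 11090 genes at or above that median, 48.1% were called and 21.8% were lower. Of the 18 dimmer collagen genes, 1 was lower and 0 were higher, or 5.56%, against 4.28% of all dimmer genes. By unadjusted p under 0.05, the same 18 gave 1 lower and 0 higher (5.56%), against 10.2% of all dimmer genes.

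**Figure D1:**
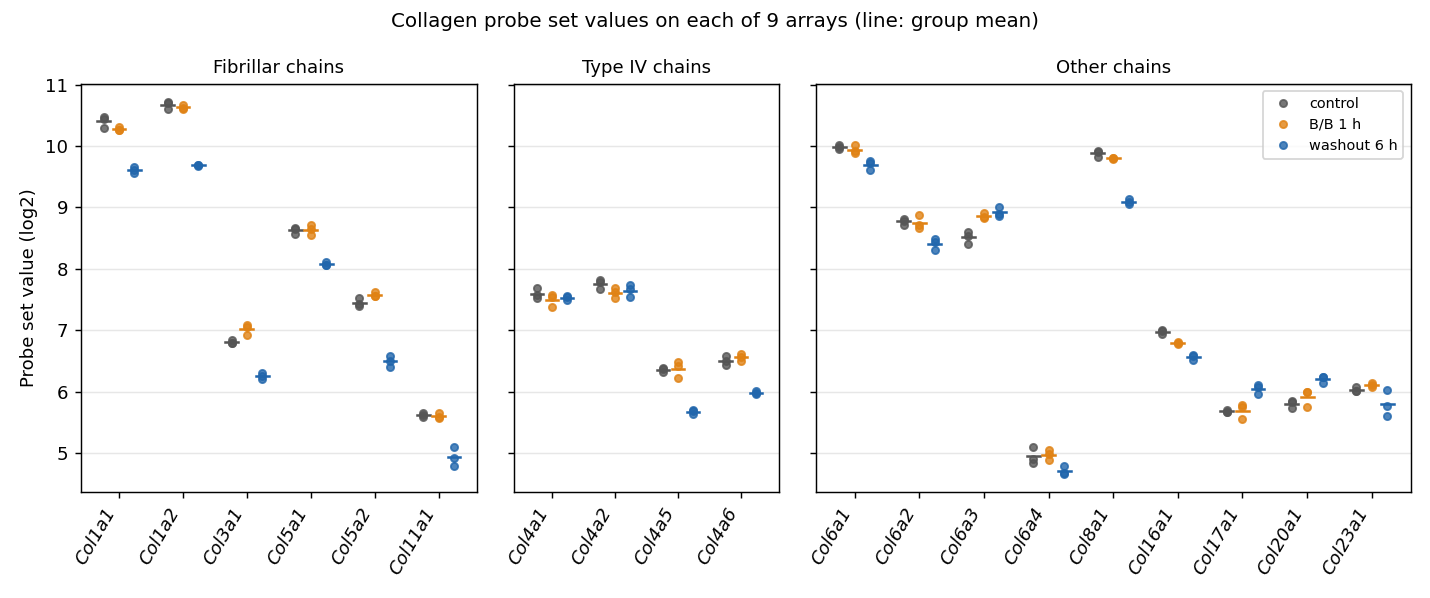
Log2 signal on each of the 9 arrays (points, with a line at the group mean, n = 3) for 19 named collagen genes in control, B/B 1 h and washout 6 h. Col1a2 sits between 9.68 and 9.69 at washout and between 10.60 and 10.71 on the other arrays, while Col6a3 sits at 8.41 to 8.59 in control and at 8.83 to 9.01 on the other arrays.

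Fibrillar chains fell at washout in 6 of 11 cases (54.5%) and rose in 0, where 11.7% of all genes and 21.8% of those at or above the median mean were lower. The class had a median log2 difference from control of -0.55 against 6e-04 over all genes. Against B/B, 6 of 11 were lower too (12.0% of all genes), with a median of -0.56 (-0.02 over all genes). Collagen I is the main fibril protein of skin, tendon and bone, built from chains encoded by Col1a1 and Col1a2. Col1a2 read 10.71, 10.71 and 10.60 on the control arrays, 10.60, 10.61 and 10.67 after B/B, and 9.69, 9.68 and 9.68 after washout. Every washout array was lower than every other array, whereas control and B/B arrays overlapped. Col1a2 was 1.98-fold lower at washout than in control (log2 difference -0.99 ± 0.045, SE; limma adjusted p = 5.2e-07) and 1.92-fold lower than after B/B (-0.94; limma adjusted p = 5.5e-07). Col1a1 read 10.48, 10.44 and 10.30 in control, 10.32, 10.26 and 10.26 after B/B and 9.56, 9.61 and 9.66 after washout. Again the washout arrays lay below all others. Its fall from control was 1.73-fold (-0.79 ± 0.055, SE; limma adjusted p = 6.4e-06), and its difference between B/B and control was -0.12 (limma adjusted p = 0.27).

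A second, dimmer Col1a2 probe set had group means of 7.55, 7.35 and 5.75 in control, B/B and washout. Its difference at washout from control was -1.79, larger than that of the brighter one, with a limma adjusted p of 3.9e-06 over all probe sets with 1 symbol. The direction was thus the same on both probe sets, and the size differed.

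Col3a1, the chain of type III collagen that is co-deposited with type I in elastic tissues, read 6.80, 6.85 and 6.80 in control, 6.92, 7.05 and 7.09 after B/B and 6.20, 6.26 and 6.30 after washout. The 3 groups did not overlap: B/B was the highest and washout the lowest. The washout value was 1.47-fold lower than control (-0.56 ± 0.054, SE; limma adjusted p = 4.5e-05) and 1.70-fold lower than B/B (-0.77; limma adjusted p = 5.7e-06). The difference of 0.21 between B/B and control missed the threshold (limma adjusted p = 0.079), with a 95% interval of 0.09 to 0.33. It passed after quantile normalization (0.26; limma adjusted p = 0.0204) and without B/B replicate 1 (0.26; limma adjusted p = 0.0433).

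Type V chains regulate fibril assembly, and their genes differed in response. Col5a2 read 7.52, 7.40 and 7.42 in control, 7.62, 7.56 and 7.56 after B/B and 6.40, 6.50 and 6.58 after washout, the last lying well below the rest. It was 1.94-fold lower than control (-0.95 ± 0.056, SE; limma adjusted p = 2.3e-06) and 2.13-fold lower than B/B (-1.09; limma adjusted p = 9.0e-07). Col5a1 read 8.66, 8.66 and 8.58 in control, 8.56, 8.71 and 8.65 after B/B and 8.06, 8.12 and 8.06 after washout. Control and B/B arrays overlapped and washout arrays were lower than both. Its fall was 1.47-fold from control (-0.55 ± 0.050, SE; limma adjusted p = 3.4e-05). A second Col5a1 probe set had means of 5.45, 5.58 and 5.18, with a difference of -0.27 from control that missed the threshold (limma adjusted p = 0.094) and one of -0.39 from B/B that passed it (limma adjusted p = 0.018). Col5a3 read 5.19, 4.99 and 5.15 in control, 5.17, 5.17 and 5.31 after B/B and 5.23, 5.17 and 5.17 after washout. Those groups overlapped, and the washout difference from control of 0.08 (95% interval -0.06 to 0.22) was not called.

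Col11a1, whose chain forms the core of thin cartilage fibrils and pairs with type V chains elsewhere, read 5.62, 5.59 and 5.65 in control, 5.57, 5.60 and 5.65 after B/B and 4.79, 4.93 and 5.10 after washout. The washout arrays lay below the others and spread more widely (SD 0.16 against 0.03 in control). It was 1.60-fold lower than control (-0.68 ± 0.071, SE; limma adjusted p = 8.1e-05). Among the chondrocyte markers, Sox9 was bright in all groups and Acan, the cartilage proteoglycan gene, was dim. The other fibrillar members (Col2a1, Col11a2, Col24a1 and Col27a1), with Col5a3, ranged from -0.10 to 0.08 at washout against control and from -0.22 to -0.0037 against B/B. The lowest limma adjusted p among these 5 was 0.41 against control and 0.082 against B/B.

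Promoter sequence is shown for 4 fibrillar genes that fell and for Col6a3, which rose, so that the start regions of members with opposite changes can be read together. Each run is the 150 bases before the outermost annotated RefSeq start in GRCm38.p6, 5′ to 3′ on the gene's strand. Capitals mark matches to any of 4 motifs, each searched on both strands so that its reverse complement counts as well. These were the CCAAT box, the GC box GGGCGG, the TATA box TATAAA and the AP-1 motif TGANTCA, and overlapping matches were counted for each motif.
Col1a2, chr6:4505468-4505617, plus strand: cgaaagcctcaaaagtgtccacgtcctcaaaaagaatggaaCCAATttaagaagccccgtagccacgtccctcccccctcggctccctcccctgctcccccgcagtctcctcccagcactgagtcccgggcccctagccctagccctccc
Col3a1, chr1:45311388-45311537, plus strand: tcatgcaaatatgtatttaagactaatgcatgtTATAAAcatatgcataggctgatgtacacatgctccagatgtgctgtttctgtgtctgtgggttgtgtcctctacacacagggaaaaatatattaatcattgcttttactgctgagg
Col5a1, chr2:27886231-27886380, plus strand: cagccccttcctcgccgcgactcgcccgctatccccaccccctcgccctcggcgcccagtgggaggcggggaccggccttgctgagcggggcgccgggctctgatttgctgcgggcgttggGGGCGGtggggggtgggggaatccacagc
Col11a1, chr3:114030329-114030478, plus strand: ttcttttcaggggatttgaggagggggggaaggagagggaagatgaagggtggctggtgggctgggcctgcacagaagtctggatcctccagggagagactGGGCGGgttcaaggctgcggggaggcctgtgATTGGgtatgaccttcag
Col6a3, chr1:90844002-90844151, minus strand: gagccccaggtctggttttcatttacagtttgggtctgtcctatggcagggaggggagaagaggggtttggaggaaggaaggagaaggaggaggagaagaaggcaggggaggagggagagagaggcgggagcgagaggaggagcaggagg

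All 44 members were in the gene annotation, 35 of them had an entry among the promoter sequences used, and 23 had a complete window of this length. Col1a1 and Col5a2, the other fibrillar genes that fell, had no complete window. The outermost start can differ from the start around which a promoter sequence was taken. A motif close to that other start, such as a TATA box, can then lie outside the window. CCAAT was present in 4 of the 10 windows of genes lower at washout, in 4 of the 13 other collagen windows and in 28.9% of all 13537 windows. GGGCGG was present in 4 of 10, 6 of 13 and 35.1%. TATAAA was present in 1 of 10, 3 of 13 and 8.81%, and TGANTCA in 1 of 10, 0 of 13 and 3.87%. The printed Col1a2 and Col11a1 windows hold CCAAT on one strand or the other, Col3a1 holds TATAAA, Col5a1 and Col11a1 hold GGGCGG, and Col6a3 holds none of the motifs searched. Among windows not printed, that of Col17a1, which also rose, holds CCAAT and TATAAA, and those of Col6a2 and Col4a6, which fell, hold none. A match is a string of letters and not a binding site, and nothing follows from a window without one.

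Of 8 basement membrane chains, 0 were higher and 2 lower at washout, with a median difference from control of -0.05. That is 25.0% called, about the 26.2% of all genes. The genes called were 2 of the 6 type IV chains, Col4a5 and Col4a6, whose chains join in alternative networks of specialised basement membranes. Col4a5 read 6.32, 6.39 and 6.36 in control, 6.23, 6.48 and 6.42 after B/B and 5.63, 5.71 and 5.68 after washout. The washout arrays were below all others, by 1.61-fold against control (-0.68 ± 0.064, SE; limma adjusted p = 4.0e-05). Col4a6 read 6.49, 6.58 and 6.43 in control, 6.50, 6.62 and 6.56 after B/B and 5.99, 5.96 and 6.01 after washout. It showed the same order and was 1.43-fold lower than control (-0.52 ± 0.052, SE; limma adjusted p = 6.4e-05).

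The common type IV chains, Col4a1 and Col4a2, build the network found in nearly all basement membranes. Col4a1 read 7.68, 7.57 and 7.52 in control, 7.37, 7.57 and 7.55 after B/B and 7.49, 7.54 and 7.56 after washout. The groups overlapped, and the washout difference from control was -0.06 with a 95% interval of -0.20 to 0.09 (limma adjusted p = 0.60). Col4a2 read 7.79, 7.81 and 7.67 in control, 7.52, 7.68 and 7.63 after B/B and 7.54, 7.67 and 7.73 after washout. These arrays overlapped too, with a washout difference of -0.11 and an interval of -0.26 to 0.04 (limma adjusted p = 0.30). Both intervals leave out falls of the size measured for Col4a5 and Col4a6.

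Col4a3 and Col4a4, whose chains join Col4a5 in the kidney filtration barrier, were dim. Col4a3 read 4.05, 4.10 and 4.08 in control, 4.23, 4.10 and 4.11 after B/B and 4.11, 4.02 and 4.10 after washout. Col4a4 read 4.13, 4.23 and 4.26 in control, 4.37, 4.23 and 4.23 after B/B and 4.23 on each washout array. No group stood apart for either gene, and neither was called. Col15a1 and Col18a1, whose chains carry anti-angiogenic fragments and sit in the basement membrane zone, were not called either, and the 6 uncalled members ranged from -0.11 to 0.03 at washout against control.

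Among the other 25 collagens, 3 were higher and 5 lower at washout against control, with a median of -0.02. The share called was 32.0% (12.0% higher and 20.0% lower), against 26.2% of all genes (14.5% and 11.7%). Type VI collagen, a filament of 3 main chains, changed in opposite directions. Col6a3 read 8.53, 8.59 and 8.41 in control, 8.85, 8.92 and 8.83 after B/B and 8.89, 9.01 and 8.86 after washout. All B/B and washout arrays were above all control arrays. It was the 1 collagen gene called higher at 1 h, by 1.28-fold (0.35 ± 0.060, SE; limma adjusted p = 0.016), and was 1.33-fold above control at washout (0.41; limma adjusted p = 7.0e-04). Without control replicate 3 the 1 h difference was 0.30 (limma adjusted p = 0.056) and without B/B replicate 2 it was 0.33 (limma adjusted p = 0.060), so that call was lost in both cases. Washout and B/B differed by 0.06 (95% interval -0.08 to 0.19).

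Col6a1 read 10.02, 9.96 and 9.99 in control, 9.89, 10.01 and 9.91 after B/B and 9.61, 9.76 and 9.73 after washout. Washout was lower on every array, with a difference from control of -0.29 ± 0.054 (SE; limma adjusted p = 2.5e-03). A second Col6a1 probe set had means of 7.29, 6.87 and 6.41, differing from control by -0.42 after B/B (limma adjusted p = 0.043) and by -0.88 after washout (limma adjusted p = 7.4e-05); its size differed from the brighter one. Col6a2 read 8.79, 8.81 and 8.72 in control, 8.67, 8.87 and 8.72 after B/B and 8.31, 8.43 and 8.48 after washout, again lowest at washout, with a difference from control of -0.36 ± 0.065 (SE; limma adjusted p = 2.1e-03). Col6a4 read 5.11, 4.90 and 4.84 in control, 4.98, 5.05 and 4.88 after B/B and 4.66, 4.79 and 4.67 after washout. The washout arrays lay below the others but close to them, with a difference of -0.24 from control (limma adjusted p = 0.038) whose call was lost under 8 of 17 alternatives, among them without control replicate 1 or 2, B/B replicate 1, or washout replicate 1 or 3. It was also lost at a threshold of 0.01.

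Col8a1 encodes a short-chain collagen that forms hexagonal networks, found in vessel walls. It read 9.91, 9.92 and 9.82 in control, 9.79, 9.81 and 9.81 after B/B and 9.09, 9.06 and 9.14 after washout. Washout was far below both other groups, 1.73-fold lower than control (-0.79 ± 0.044, SE; limma adjusted p = 1.8e-06). Col16a1, one of the fibril-associated collagens that lie on fibril surfaces, read 6.98, 7.01 and 6.94 in control, 6.77, 6.80 and 6.81 after B/B and 6.59, 6.58 and 6.52 after washout. The 3 groups formed a descending order with no overlap. It was the 1 collagen called lower at 1 h, with a difference of -0.18 ± 0.041 (SE; limma adjusted p = 0.047), and that call was lost when any single array was left out of the fit, whichever group it came from, where the difference ranged from -0.17 to -0.20. Its washout difference from control was -0.41 (limma adjusted p = 5.2e-05).

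The remaining called members were 3. Col17a1, the transmembrane collagen of hemidesmosomes, read 5.71, 5.67 and 5.67 in control, 5.78, 5.75 and 5.55 after B/B and 5.96, 6.11 and 6.07 after washout. The washout arrays were above all others, with a difference of 0.37 from control (limma adjusted p = 2.3e-03). Col20a1, a fibril-associated collagen, read 5.74, 5.84 and 5.84 in control, 6.00, 5.75 and 6.00 after B/B and 6.14, 6.24 and 6.24 after washout. Here too washout was highest, with a difference of 0.40 from control (limma adjusted p = 2.2e-03). Col23a1, a transmembrane collagen, read 6.01, 6.01 and 6.08 in control, 6.11, 6.15 and 6.08 after B/B and 6.02, 5.60 and 5.77 after washout. Its washout arrays spread (SD 0.21) and overlapped control. It was called against B/B (-0.31; limma adjusted p = 0.026) and not against control (-0.24; limma adjusted p = 0.091). The first call was lost without any 1 of the 3 B/B arrays, without washout replicate 2 (-0.21) or 3 (-0.30), and with only the 2 groups compared; the second was gained without washout replicate 1 (-0.35; limma adjusted p = 3.8e-03).

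In total 27 of the 44 collagen genes were called in no comparison. The 16 of these in the third class, among them the anchoring fibril chain gene Col7a1 and the fibril-associated Col12a1 and Col14a1, ranged from -0.16 (Col28a1) to 0.11 (Col22a1) at washout against control. After B/B they ranged from -0.19 (Col28a1) to 0.30 (Col26a1), and the lowest limma adjusted p among them was 0.083. A repeat of the same value on different arrays occurred for 20 of the 44 members and 41.7% of all probe sets, and for 11 of the 18 dim members. For 2 members, both dim, all 3 arrays of a group shared 1 value. Identical values add no spread, so the SEs and p-values of dim genes may be too small, and the size of this was not tested.

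**Figure D2:**
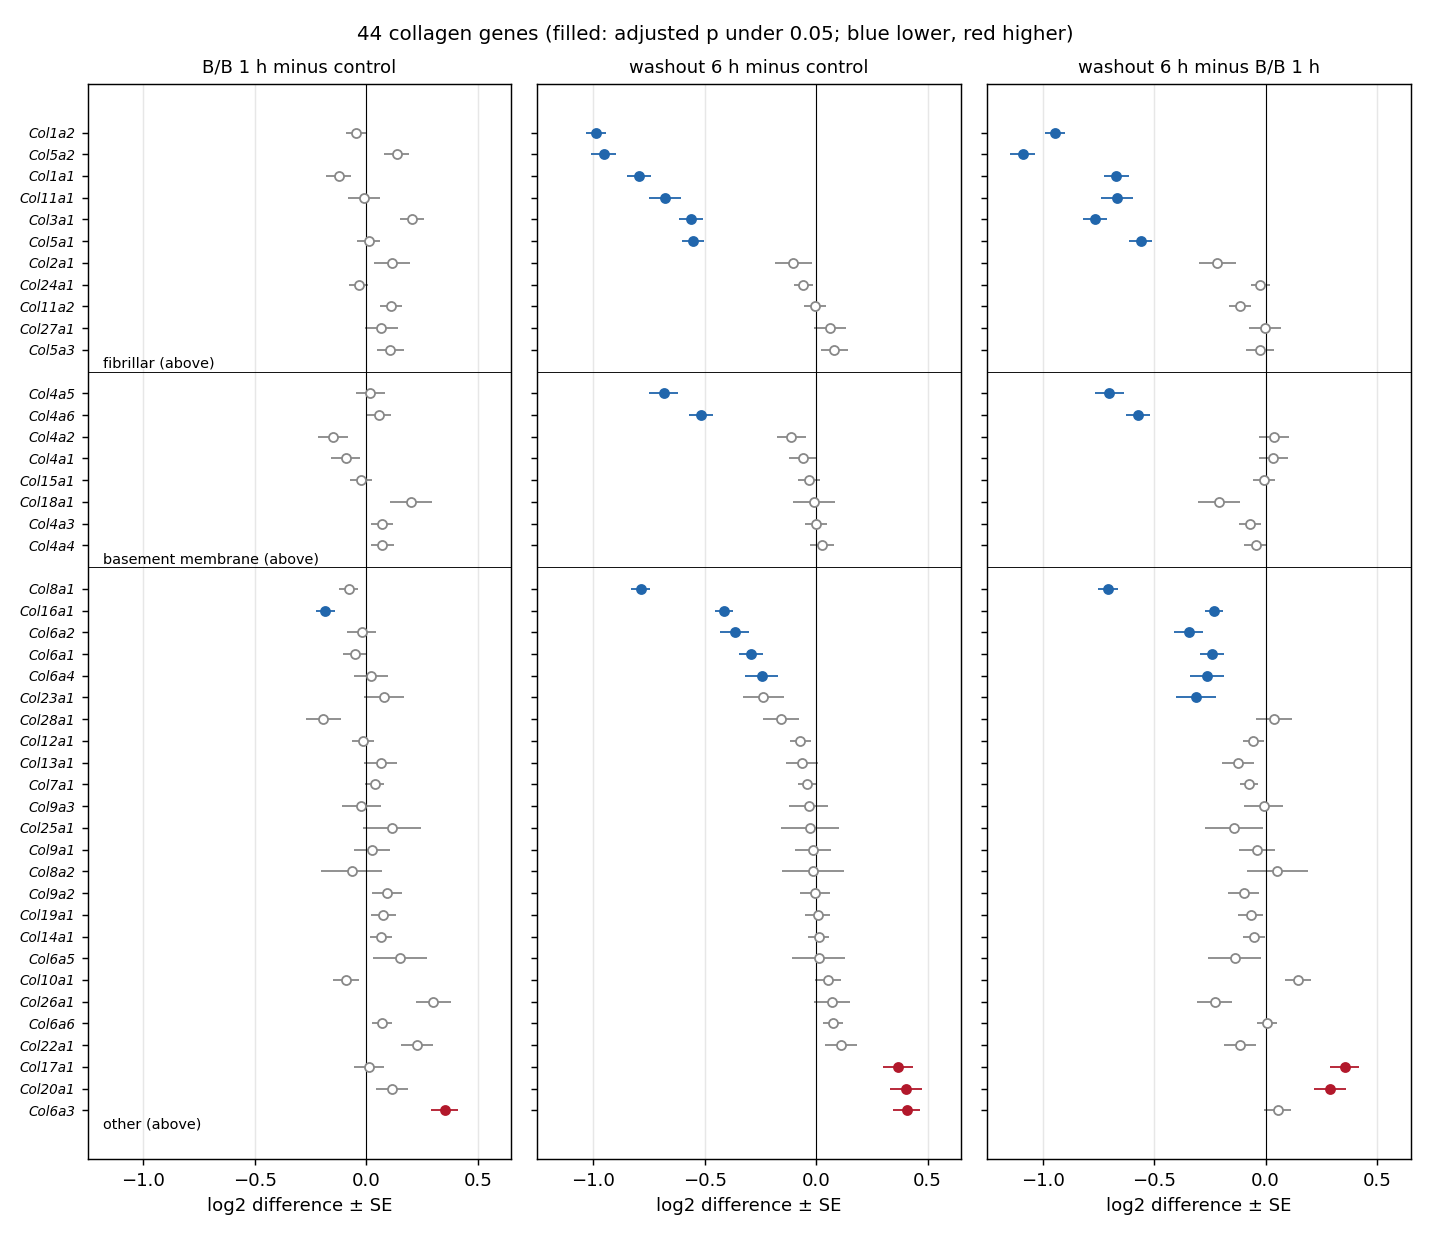
Log2 difference (points, with bars of ± SE) for each of the 44 collagen genes by class, in B/B 1 h minus control, washout 6 h minus control and washout 6 h minus B/B 1 h, filled where called. The fibrillar class has 6 genes between -0.99 and -0.55 at washout against control, and the basement membrane class has 2, at -0.68 and -0.52.

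Pairs of collagen genes with no protein-coding gene between them had the same call at washout against control, except Col6a5 and Col6a4. Only 36.4% of all collagen genes were called in that comparison, so a shared lack of a call is a common outcome. Pairs that are not neighbours were not compared, and whether neighbours agree more often was not tested. Col3a1 and Col5a2 are neighbours and both fell (-0.56 and -0.95), as did Col6a2 and Col6a1 (-0.36 and -0.29) and the head-to-head pair Col4a6 and Col4a5 (-0.52 and -0.68). The head-to-head pair Col4a1 and Col4a2 was uncalled (-0.06 and -0.11), as was the pair Col4a4 and Col4a3 (0.03 and 5e-04). Both genes were also uncalled for Col9a1 and Col19a1 (-0.015 and 0.0083) and for Col6a6 and Col6a5 (0.08 and 0.01). Col6a5, which was dim, was uncalled beside Col6a4 (-0.24), whose call was lost under 8 of 17 alternatives.

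On the brightest probe set of each gene, chains of one collagen type changed to unequal extents. Probe sets of a single gene differed as well. At washout against control the brighter and the dimmer one gave -0.99 and -1.79 for Col1a2, and -0.29 and -0.88 for Col6a1. The ratios therefore depend on the probe set chosen, and ratios from the dimmer ones were not tested. The 4 ratios given here were chosen after the values had been seen. Exact permutation tests of 3 against 3 arrays gave p of 0.1 to 0.2 in 12 tests. The smallest p such a test can give is 0.1, so it cannot decide, and the ratios are read as descriptions. As a change in log2 ratio from the control mean, Col6a3 over the mean of Col6a1 and Col6a2 was 0.44, 0.34 and 0.38 after B/B and 0.80, 0.78 and 0.63 after washout. The control arrays lay between -0.07 and 0.08. Col4a5 and Col4a6 over Col4a1 and Col4a2 changed by 0.16, 0.17 and 0.15 after B/B and by -0.46, -0.53 and -0.55 after washout. Col5a2 over Col5a1 changed by 0.25, 0.03 and 0.09 after B/B and by -0.47, -0.43 and -0.30 after washout. Col1a1 over Col1a2 changed by -0.02, -0.08 and -0.14 after B/B and by 0.14, 0.20 and 0.25 after washout. In each of these ratios the washout arrays lay outside the range of the control arrays.

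**Figure D3:**
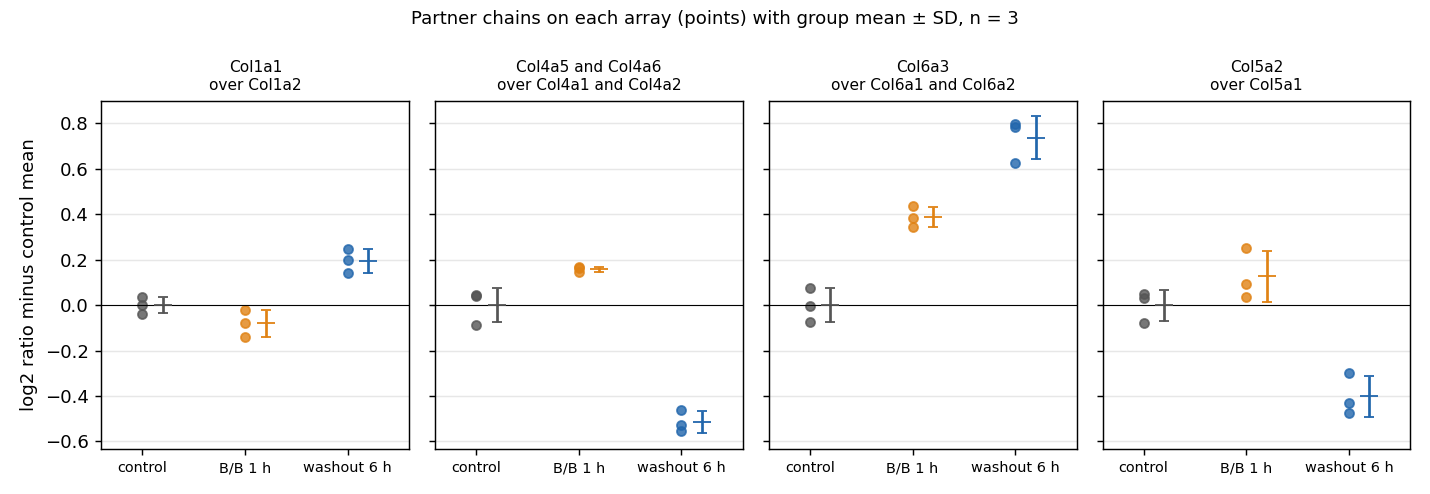
Log2 ratio of partner chains on each array, as change from the control mean (points, with group mean ± SD, n = 3). Col6a3 over Col6a1 and Col6a2 is at 0.34 to 0.44 after B/B and at 0.63 to 0.80 after washout, and the type IV ratio drops to -0.46 to -0.55 after washout.

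Genes that modify, export, trim, cross-link and bind collagen changed in the same period, and more of them were lower. Of 42 such genes listed, 37 were measured. At 1 h, 0 were higher and 1 lower (2.70%, against 2.89% of all genes), and 18.9% against 18.5% had an unadjusted p under 0.05. At washout against control, 3 were higher and 19 lower, with a median of -0.15. This was 59.5% called and 51.4% lower, against 26.2% and 11.7% of all genes. Of the 37, 30 lay at or above the median mean, and of those 73.3% were called and 63.3% lower, against 48.1% and 21.8% of all genes at or above it. At washout against B/B, 4 were higher and 20 lower (64.9%, against 28.6% of all genes). The single 1 h call was Loxl1, at -0.20 (limma adjusted p = 0.048).

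All 4 measured lysyl oxidase genes, which encode enzymes that cross-link collagen and elastin, fell at washout. Of all genes 11.7% were lower against control, and 21.8% of those at or above the median mean. Loxl3 read 9.51, 9.62 and 9.58 in control, 9.54, 9.56 and 9.60 after B/B and 8.46, 8.32 and 8.43 after washout, a fall of 2.25-fold from control (-1.17; limma adjusted p = 4.4e-07). Loxl1 fell by 0.87, Lox by 0.50 and Loxl4 by 0.48 on the log2 scale. Every washout array of Loxl3 lay below every other array.

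Of 12 prolyl and lysyl hydroxylation genes, 1 rose and 7 fell at washout against control. This was 66.7% called and 58.3% lower, against 26.2% and 11.7% of all genes. The shares were 48.1% and 21.8% for genes at or above the median mean, where all 12 but P3h2 and Crtap lay. P4ha3, a catalytic subunit of prolyl 4-hydroxylase, which stabilises the helix, fell by 1.03 (limma adjusted p = 2.3e-06), P3h3 by 0.56, P3h4 by 0.39 and P4ha1 by 0.34, while Plod2, the lysyl hydroxylase of the chain ends, rose by 0.23 (limma adjusted p = 5.1e-03). Ppib, a proline isomerase that aids folding, and P4ha2 were not called. Colgalt1, which adds galactose to hydroxylysine, fell by 0.55.

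Chaperone, export and transcription genes gave 1 higher and 4 lower of 6 (83.3% called and 66.7% lower). These shares were 26.2% and 11.7% for all genes. They were 48.1% and 21.8% for genes at or above the median mean, where all 6 lay. Serpinh1, the collagen chaperone, fell by 0.36, Creb3l1, a transcription factor of collagen secretion, by 0.54, and the vesicle coat genes Sec23a and Sec24d by 0.42 and 0.30. Klhl12, an adaptor for the ubiquitin ligase that enlarges these vesicles, rose by 0.42 (limma adjusted p = 6.2e-03). Of 6 propeptide removal genes, 2 fell (33.3% called, against 26.2% of all genes and 48.1% of those at or above the median mean). All 6 but Pcolce2 and Adamts3 lay at or above it. Adamts14, a protease of the amino-terminal end, fell by 0.59. Pcolce, an enhancer of the protease that trims the carboxy-terminal end, fell by 0.49, and Bmp1, which encodes that protease, was not called.

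Among 7 receptor and uptake genes, 1 rose and 1 fell, or 28.6%, near the 26.2% of all genes. Itga2, the collagen-binding alpha 2 integrin chain, read 6.05, 6.06 and 6.17 in control, 5.92, 5.80 and 6.09 after B/B and 9.92, 9.88 and 9.94 after washout. The washout arrays lay far above the others, 14.1-fold over control (3.82 ± 0.070, SE; limma adjusted p = 4.8e-09). Mrc2, an endocytic collagen receptor, fell by 0.47. Ddr1 and Ddr2, collagen-activated kinases, and Itgb1 were not called against control; Ddr1 was 0.16 higher than after B/B (limma adjusted p = 0.040).

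**Figure D4:**
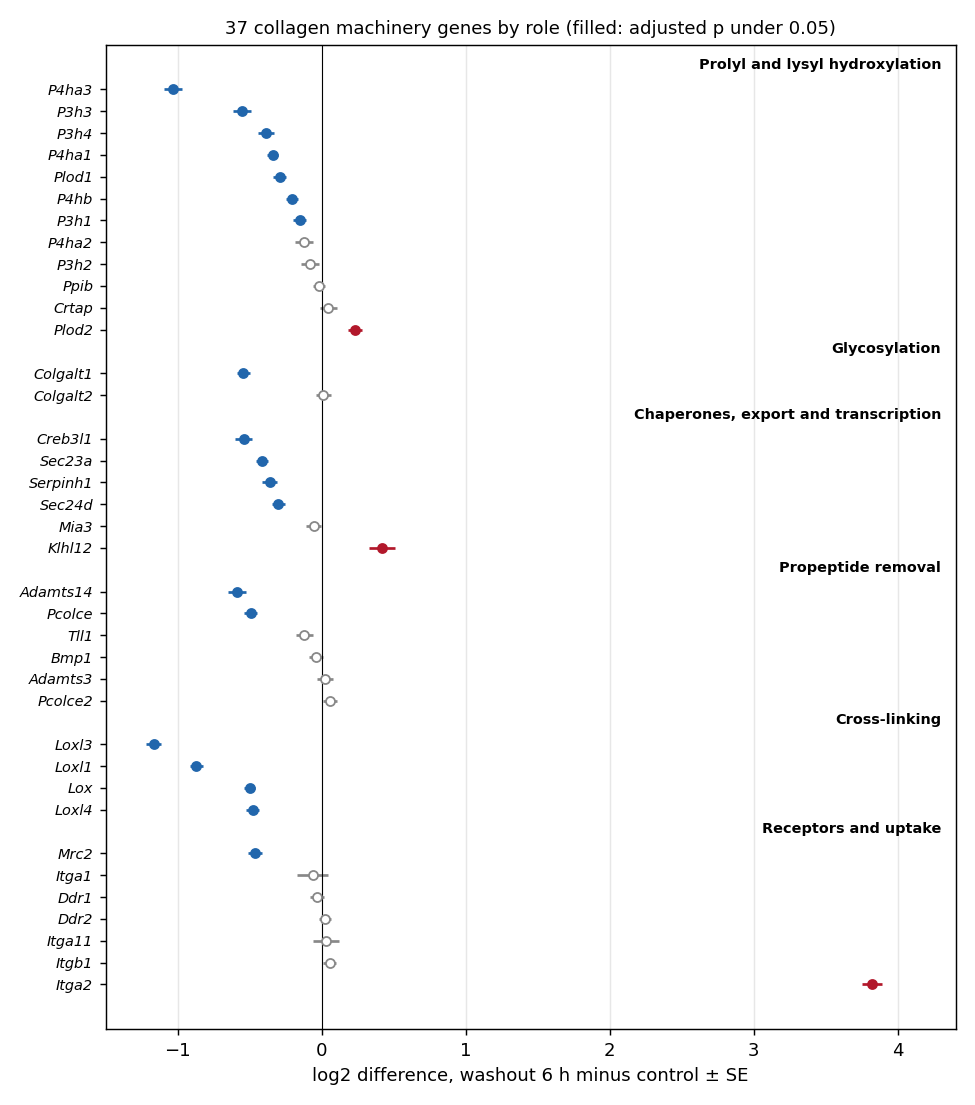
Log2 difference, washout 6 h minus control (points, with bars of ± SE), for 37 genes that act on collagen, by role and filled where called. All 4 lysyl oxidase genes are below 0 at washout, and Itga2 is the far-right point at 3.82.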

How the data were processed

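RNA of 9 arrays was analysed, 3 per group, with groups taken from the treatment labels. Values were deposited as log2 summaries of probe sets. Base 2 was inferred from their range, and the fold changes rest on it. RNA was extracted with Trizol and labelled as biotin cRNA, per the labels' protocols, and the submitters' processing notes name Partek 6.6. The summary and normalization methods are not given in the sources used here. No detection calls were used. Their number, 3 arrays per group, limits the precision.

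Of 41345 probe sets, 23521 carried 1 symbol, 1814 several and 16010 none. Only the first were used, and 47 of them were collagen. The brightest probe set stood for its gene, giving 22180 genes. The 3 groups were fitted with limma 3.58.1 (statmod 1.5.0, R 4.3.3) as 1 model over all arrays, with Benjamini-Hochberg adjustment over all genes within each comparison. The fit had 6 residual and 3.38 prior degrees of freedom, and the median SE of a log2 difference was 0.0636. Tested on simulated data for washout against control, with 200 of 22180 genes changed, it recovered 62% of genes changed 1.25-fold, 98% at 1.5-fold and 100% at 2-fold and 3-fold. In the data 26.2% of genes were called in that comparison, a far larger share than was changed in the simulation. The adjusted p depends on that share, so these rates need not hold for the data. A rate of false calls is not given here.

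Members and gene lists were chosen with earlier results of these data known. The genes named are those called in any comparison, the 8 brightest members and every chain of types I, III, IV and V. Other genes were named after their values were seen, as examples of their role. Alternatives were quantile normalization, centred array medians, leaving out the dimmest 30% of genes, averaging probe sets, a mean-variance trend, a robust prior, array weights, a threshold of 0.01, only the 2 groups compared, type IV chains alone, and leaving out each array. Promoter windows came from RefSeq, GRCm38.p6.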

Additional observations from a re-analysis of the deposited data

How the results depend on the processing

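No collagen call changed direction under any of the alternatives run. Of the calls, 15 of 16 for washout against control (all but Col6a4), 13 of 16 for washout against B/B (all but Col6a4, Col20a1 and Col23a1) and 0 of 2 for B/B against control passed in every alternative. For Col20a1 this was lost at an adjusted p under 0.01. The collagen calls for B/B against control numbered 1 with the mean-variance trend, with the robust prior and with only the 2 groups compared, and 0 at an adjusted p under 0.01. Without each array in turn they numbered 0 to 2; they were 0 without control replicate 3 or B/B replicate 2. The call on the machinery genes for B/B against control (Loxl1) became 0 after quantile normalization, after centring, with the robust prior, with array weights, at an adjusted p under 0.01 and with only the 2 groups compared, and 0 to 1 without each array. It became 2 without the dimmest 30% of genes and 3 with the trend. The median difference of the basement membrane class was -0.0845 for type IV alone (washout against control, -0.0456 for the class), -0.0993 to -0.0299 without each array in turn, and -0.0174 after centring for washout against B/B. For B/B against control it was -6e-04 to 0.0577 without each array, the lowest without B/B replicate 2. The fibrillar median for washout against control was -0.4098 when probe sets were averaged. For all genes, calls for B/B against control were 642, and 1228 with the trend, 239 at 0.01, 359 with the 2 groups alone and 323 to 691 without single arrays. The cause of these shifts was not tested. No paired analysis was possible because the labels give no replicate numbers. The replicate numbers used here only follow the order in which the samples of each group are listed. No detection calls were used, so signal over background was not measured.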
